A study of Mus musculus with 24 samples.

Results

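Untreated cortical neurons of both genotypes are compared here gene by gene: the 4 libraries labelled as knockout and control against the 4 libraries labelled as wild type and control, out of 24 libraries in the series. The choice of libraries followed from their labels alone. All neurons came from the cortex of mouse embryos at E16.5, late in gestation, and were grown for 12 days in culture. The wild-type group (WT) carries no stated alteration. The other group (KO) carries the genotype H2BE-KO/mCherry-KI, a knockout of the histone variant gene that mouse annotation calls Hist2h2be, with the fluorescent reporter mCherry knocked in. The 16 further libraries were treated with brain-derived neurotrophic factor (BDNF) for 30 min or 24 h and are used below as other libraries of the same cultures. Each genotype has 4 cultures, coded WT2C, WT2D, WT2E and WT2F, and KO2A, KO2B, KO2C and KO2D, which are replicates 1 to 4 in that order. The labels call them biological replicates and do not say how many embryos or litters each represents. Sex of the embryos, the strain and what the control cultures received are not given.

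H2B is 1 of the core histones around which DNA is wrapped, and H2BE is a variant of it that differs from the usual form in a few amino acids. Variants of this kind are made outside cell division and can replace the usual histone in neurons, which no longer divide. Cortical cultures of this age hold mostly glutamatergic neurons of the upper and deep layers, a smaller number of GABAergic interneurons and few glia. Their firing switches on a rapid wave of genes for transcription factors, such as Fos, and later genes for secreted and synaptic proteins, such as Bdnf. Even without added BDNF, such cultures fire and express these genes at some level, so a comparison of untreated neurons is also a comparison of that starting level.

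Each untreated library held 23734512 to 61860243 counts over 45792 genes, and 16777 genes had enough counts in the series to be tested. Levels are given as CPM, the counts of a gene relative to all counts of its library, scaled by TMM library factors, which remove differences in total RNA composition, and differences as log2 fold change of KO minus WT with its standard error (SE). A gene was called where edgeR's quasi-likelihood test gave a Benjamini-Hochberg adjusted p under 0.05, and every adjusted p below is from that test. Genes are described by 34 lists of known function or cell type. In each list, the up to 4 called members that changed most are named by rule, and other members named beside them were chosen after their values were seen. Genes encoded by the mitochondrial genome took 5.11% to 5.46% of the counts in WT and 5.77%, 5.17%, 9.34% and 18.5% in KO replicates 1 to 4, so culture KO2D stood apart and every comparison was repeated without it. On the first principal component of the 2000 most variable genes, which held 43.1% of the variance, WT lay at -36.3 to -25.3 and KO at 19.8 to 63.4, with KO2D at the far end. In each genotype 2 untreated libraries had high Xist and 2 had high Ddx3y. The 24 h library of KO2D held both, 145 CPM of Xist and 66.3 CPM of Ddx3y, whereas its control library had 423 CPM of Xist and 0.19 CPM of Ddx3y. The neuronal markers Tubb3, Map2, Snap25 and Stmn2 were expressed in all 8 libraries, and astrocyte, oligodendrocyte, microglial, endothelial and fibroblast marker lists summed to at most 727 CPM against 9252 CPM or more for general neuron markers.

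The annotated gene of the targeted histone was not lost from the count table but was higher in KO. Hist2h2be (ENSMUSG00000068854, chr3:96221119-96223738, plus strand, mm10, protein-coding) had 4.75, 4.88, 4.70 and 5.83 CPM in the 4 WT libraries and 49.96, 60.6, 57.9 and 54.5 CPM in the 4 KO libraries. The groups did not overlap, and every KO library was several times above every WT library. The log2 fold change was 3.46 ± 0.21 (SE, n = 4 against 4, adjusted p = 4.37e-10), the smallest p of all genes tested. The same contrast gave 3.80 ± 0.21 at 30 min and 3.82 ± 0.21 at 24 h. Which exons of the gene the deposited count takes in is not given. How much of its sequence remains in the knock-in allele is not stated, so this level separates the labelled genotypes but checks no deletion. WT and KO below therefore mean the libraries so labelled.

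Of 27 histone genes tested, 2 were higher (7.41%) and 4 lower (14.8%) in KO, against 11.3% and 10.1% of all genes tested, with a median log2 fold change of 0.11 against 0.03 over all genes tested. The other riser was Hist2h2ac, an H2A gene beside Hist2h2be on the opposite strand (chr3:96220361-96220880). It held 11 counts over the WT libraries and 62 over the KO libraries, a ratio of 5.64 in CPM (95% exact interval 2.94 to 11.9, counting error only), and whether reads of both neighbours were separated by strand, or how reads that fit several near-identical histone genes were counted, is not given. Its call was lost in 6 of the 8 fits that left out 1 control library. The 4 that fell were the macroH2A gene H2afy2, from 74.0 ± 3.46 to 41.2 ± 3.93 CPM (SD, n = 4, log2 fold change -0.85), Hist3h2a (-0.57), H3f3a (-0.40) and the linker histone gene H1f0 (-0.27). Without the control library of WT replicate 4 or of KO replicate 1, 2 histone genes were lower, and Hist3h2a then had an adjusted p of 0.11 or 0.057. The share of called genes near the targeted locus was close to that over all genes. Within 1 Mb of Hist2h2be 14 of 65 tested genes were called (21.5%), within 10 Mb 60 of 301 (19.9%) and on all of chromosome 3 199 of 891 (22.3%), where 21.4% of all genes tested were called. Those with the smallest p within 10 Mb included Zfp697 (-1.18 ± 0.14), the adaptor gene Plekho1 (1.01 ± 0.13), the small GTPase gene Nras (-0.59 ± 0.10) and the RNA-binding gene Mex3a (-1.28 ± 0.23).

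**Figure D1:**
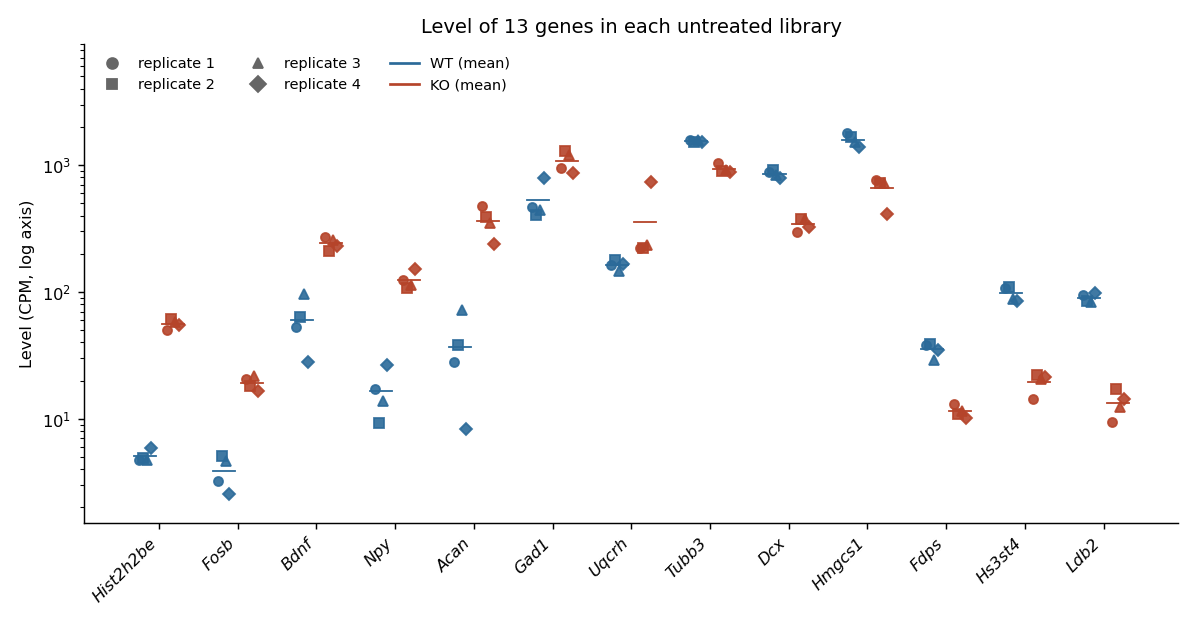
Level of 13 genes (CPM, log axis) in each untreated library, WT in blue and KO in red, with symbols for the replicate and a bar at the group mean (n = 4). KO replicate 4 (diamond) stands apart for Uqcrh at 739 CPM and Hmgcs1 at 413 CPM, and WT replicate 4 for Gad1 at 788 CPM.

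Across all genes, the genotypes differed widely before any treatment. Of 16777 genes tested, 3592 were called (21.4%), 1903 of them higher in KO (11.3%) and 1689 lower (10.1%). At an unadjusted p under 0.05 there were 5599. Most differences were small, with a median size of 0.66 on the log2 scale among called genes, and 552 rose and 514 fell by more than 1 on the log2 scale. Over 3 on the log2 scale lay 71 genes that rose and 40 that fell. The 4 KO libraries lay wholly beyond the 4 WT libraries for 4438 genes (26.5% of those tested) and for 3142 of the called genes (87.5%). Protein-coding genes were called more often (3422 of 14415, 23.7%) than genes of other types (170 of 2362, 7.20%). In bulk libraries, fewer cells of a type and less RNA per cell cannot be told apart, which touches every gene list below. Counts for those lists are to be read beside the shares over all genes tested, 11.3% higher and 10.1% lower.

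Leaving out culture KO2D raised the number of calls. Then 4469 of 16915 genes were called (26.4%), 2306 higher (13.6%) and 2163 lower (12.8%), and 3272 of the 3592 calls (91.1%) were kept with the same sign. Calls made whichever 1 of the 8 control libraries was left out numbered 2077 (57.8%). The library descriptions are written in 2 forms, which split the cultures into a first set (2 WT, 1 KO) and a second (2 WT, 3 KO). Within the second set alone, 599 genes were called, 243 higher and 356 lower. The first set holds 1 KO culture and gives no value of its own.

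The same direction appeared in libraries that this contrast did not use. KO against WT at 30 min of BDNF called 4760 genes (28.4%), and 3067 genes were called in both with the same sign, which is 85.4% of the untreated calls and 64.4% of the 30 min calls. At 24 h 2223 genes were called (13.3%), and 1633 were shared with the same sign, 45.5% of the untreated calls and 73.5% of the 24 h calls. Without KO2D the count shared at 24 h was 2923. Of the 3592 genes, 99.1% had the same sign at 30 min and 96.3% at 24 h, called or not. By label both comparisons come from the same cultures, so a property of a culture would appear in all 3. The 24 h library of KO2D held both Xist (145 CPM) and Ddx3y (66.3 CPM), unlike its control library. Whether it is wholly from that culture is not known, which limits the 24 h comparison.

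**Figure D2:**
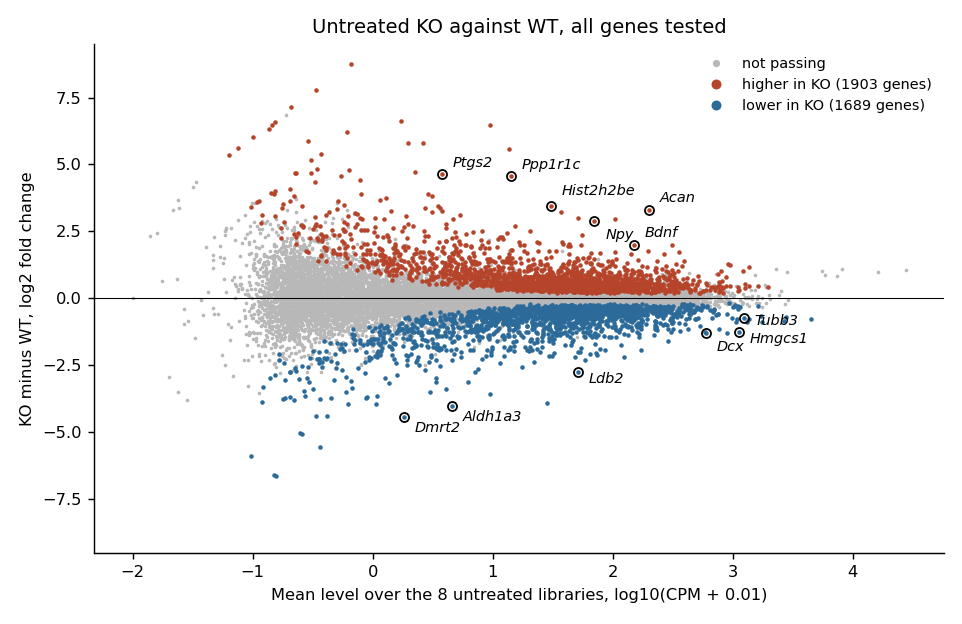
Each point is 1 of 16777 genes, with its mean level over the 8 untreated libraries (log10 of CPM + 0.01) across and its KO minus WT log2 fold change upward. Red marks the 1903 genes called higher and blue the 1689 called lower, and named genes are circled.

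The largest rises, among genes of at least 1 CPM whose groups did not overlap, included enzymes and a phosphatase inhibitor that were near 0 in WT. Ptgs2, the inducible cyclooxygenase of prostaglandin synthesis, had 0.18, 0.22, 0.81 and 0 CPM in WT and 8.16, 4.92, 9.85 and 6.16 CPM in KO (4.63 ± 0.56, adjusted p = 6.44e-06). Ppp1r1c, an inhibitor subunit of protein phosphatase 1, had 0.90, 0.66, 1.51 and 1.51 CPM in WT and 28.5, 21.6, 26.1 and 33.1 CPM in KO (4.58 ± 0.49, adjusted p = 1.66e-06). Hpse, the heparan sulfate-cleaving enzyme heparanase, rose from 0.40 ± 0.13 to 5.84 ± 1.43 CPM (SD, n = 4, log2 fold change 3.83 ± 0.39). All 3 were also called without KO2D and in each of the 8 fits that left out 1 control library. Tnmd rose by 4.71 ± 0.89, Emp1 by 3.90 ± 0.55, Lce1g by 3.73 ± 0.94, Crisp1 by 3.47 ± 0.78 and the collagen gene Col10a1 by 3.39 ± 0.43. For genes with few counts in the lower group the depth-scaled ratio of summed counts is given instead. It was 23.5 for the odorant receptor gene Olfr920 (95% exact interval 10.5 to 65.1), 23.5 for Impg1 (12.6 to 49.7), 13.3 for Spink2 (7.89 to 24.3), 12.6 for Art3 (8.38 to 19.8) and 11.1 for the cytokine gene Il1a (6.45 to 20.9). Wfdc2 held 0 counts over the WT libraries and 152 over the KO libraries, at least 50.7-fold higher against a floor of 3 counts over the group. That difference came mainly from KO replicate 3, at 4.76 CPM against 0.047, 0.063 and 0.29 CPM in the others, and without that library its adjusted p was 0.14.

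The largest falls included regulators of development and retinoic acid synthesis. Dmrt2, a transcription factor gene, had 4.51, 4.55, 2.15 and 2.63 CPM in WT and 0.047, 0.25, 0.27 and 0 CPM in KO (-4.44 ± 0.96, adjusted p = 0.00179). Aldh1a3, an enzyme that makes retinoic acid, had 9.14, 7.32, 3.66 and 14.5 CPM in WT and 0.52, 0.63, 0.61 and 0.29 CPM in KO (-4.02 ± 0.66, adjusted p = 0.000132). Both groups of values were separated by several fold. Cdhr1, a photoreceptor cadherin, was spread widely within WT, from 14.7 to 110 CPM, and lay at 2.32 to 5.78 CPM in KO (-3.92 ± 1.06). Also among the largest falls were the transporter gene Abca8a (-3.56), Cav1, which encodes the caveolar coat protein (-3.51), Rgs9bp (-3.38), the desmosomal cadherin gene Dsc3 (-3.14), the lymphatic growth gene Ccbe1 (-3.13), Prss35 (-3.13) and the TGF-beta family gene Lefty2 (-2.99). By ratio of summed counts Aldh3a1 was 18.4 times higher in WT (9.78 to 39.0), the prokineticin receptor gene Prokr1 15.1 times (9.73 to 24.8), Capn11 13.9 times (8.64 to 23.9), the transcription factor gene Lhx9 12.4 times (7.21 to 23.2) and Arhgap25 10.6 times (6.50 to 18.2). The call for Aldh3a1 was lost without KO replicate 1, 2 or 3 (adjusted p up to 0.062).

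**Figure D3:**
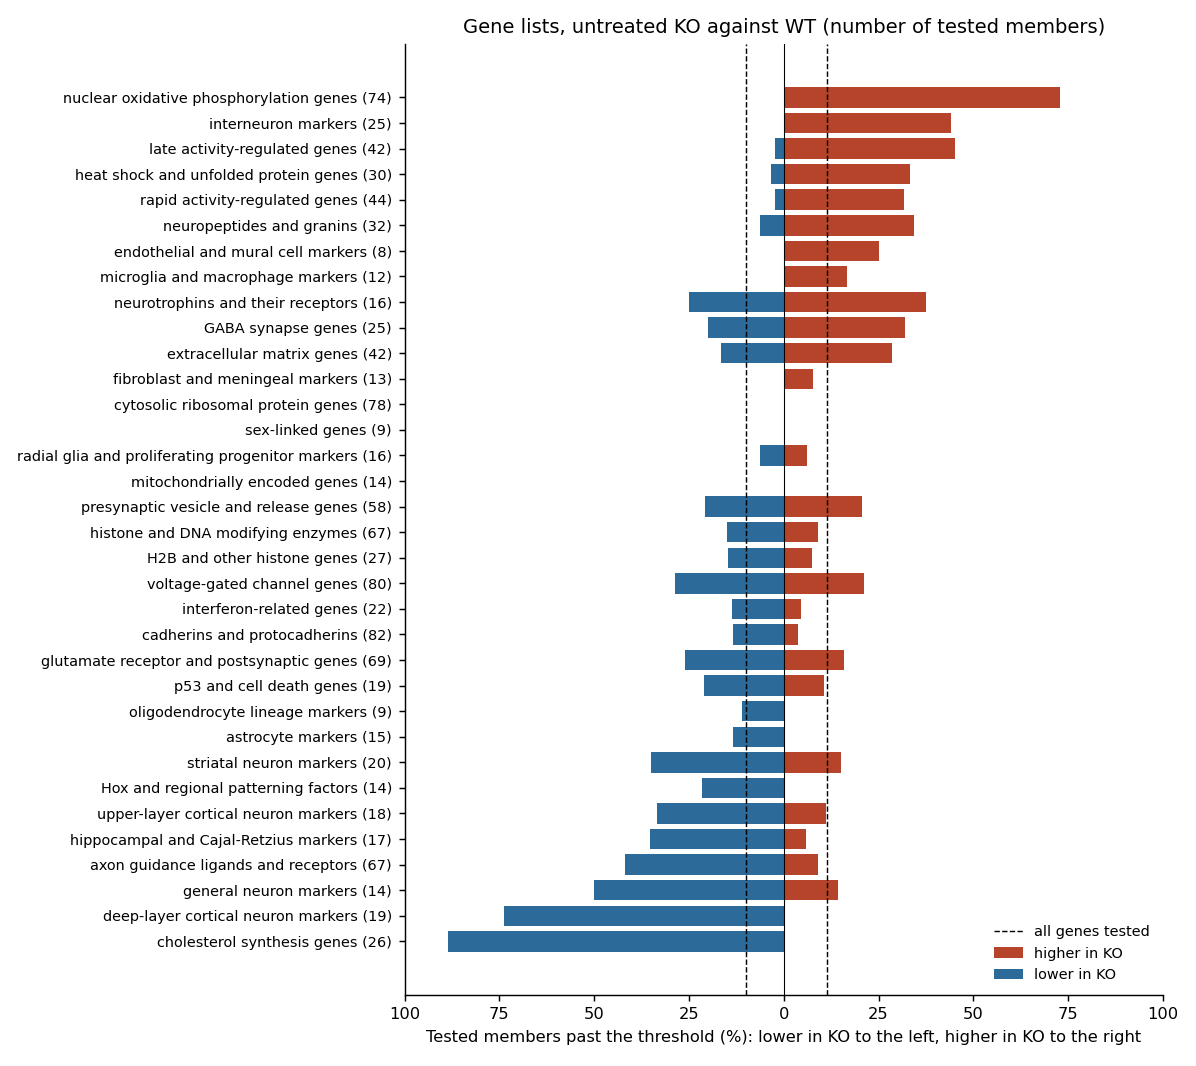
For each of 34 gene lists, the percentage of its tested members (number in brackets) called lower in KO (blue, to the left) or higher (red, to the right), with dashed lines at the shares over all genes tested, 10.1% and 11.3%. Cholesterol synthesis genes reach 88.5% lower and nuclear oxidative phosphorylation genes 73.0% higher.

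Genes of cholesterol synthesis fell together. Neurons in culture make cholesterol from acetyl-CoA for growing membranes, and the sterol-sensing factor SREBP2, encoded by Srebf2, drives most genes of the pathway. Of 26 genes tested, 23 were lower in KO and none higher, with a median log2 fold change of -1.03 against 0.03 over all genes. Without KO2D 22 were lower (median -0.90), the fits without 1 control library gave 22 or 23, and the second library set alone gave 15 (median -1.02). The summed level of the 26 genes was 6402, 6277, 5494 and 5309 CPM in WT and 3359, 2994, 3018 and 2207 CPM in KO, without overlap. Fdps, the farnesyl diphosphate synthase, had 38.3, 39.0, 29.2 and 35.0 CPM in WT and 13.2, 10.8, 11.52 and 10.1 CPM in KO (-1.63 ± 0.25, adjusted p = 5.95e-05). Other large falls were in Nsdhl (-1.44 ± 0.21), the lanosterol synthase gene Lss (-1.41 ± 0.22) and the thiolase gene Acat2 (-1.35 ± 0.19). Hmgcs1, which makes the precursor of mevalonate, and Sqle, which makes squalene epoxide, fell by 1.27 and 1.16 on the log2 scale. Hmgcs1, named after its values were seen, had 1778, 1677, 1505 and 1380 CPM in WT and 768, 727, 728 and 413 CPM in KO. The regulators fell less, Srebf2 by 0.79, Srebf1 by 0.83 and Insig1 by 0.75. Of the 3 that did not pass, Ebp had -0.10 and Pmvk -0.04. Scd1, a fatty acid desaturase outside the list that was also named after its values were seen, fell from 80.6 ± 17.5 to 17.4 ± 5.59 CPM (SD, n = 4).

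Few of these genes carry the best-known spelling of the sterol response element just upstream of their start. The spelling TCACNCCAC, searched on both strands in the 250 bases before the RefSeq start, was found in 1 of the 18 cholesterol genes that had an entry. Over 27025 genes the share was 1.22%, but these are all genes with an entry, expressed here or not, whereas the list holds tested genes only. That gene is Hmgcs1, which encodes the first committed enzyme of the pathway, and its upstream bases are shown because it was the match among the genes that fell (RefSeq, GRCm38.p6, chr13:119690101-119690350, plus strand). Capitals mark the core:
Hmgcs1: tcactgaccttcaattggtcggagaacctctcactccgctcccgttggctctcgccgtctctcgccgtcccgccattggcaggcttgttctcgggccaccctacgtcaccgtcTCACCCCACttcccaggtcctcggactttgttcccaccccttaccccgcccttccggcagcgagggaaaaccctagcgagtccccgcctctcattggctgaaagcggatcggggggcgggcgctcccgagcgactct
A match of letters is a description of this window and not a measured binding site.

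Nuclear genes of oxidative phosphorylation, the chain of mitochondrial complexes that makes ATP, rose. Of 74 tested, 54 were higher and none lower (median 0.61), while Ndufs5 had the only negative value (-1.33, not passing). The summed level was 9897 to 10681 CPM in WT, 13614, 13144 and 13655 CPM in KO replicates 1 to 3 and 22320 CPM in KO replicate 4. KO replicates 1 to 3 were thus above all WT libraries, and KO replicate 4 was far above both. For Uqcrh, a subunit of complex III, the values were 163, 180, 146 and 166 CPM in WT and 222, 220, 233 and 739 CPM in KO. For Cox8a, a subunit of complex IV, they were 158, 153, 154 and 154 CPM in WT and 248, 208, 237 and 534 CPM in KO (0.99 ± 0.24, adjusted p = 0.00522). Leaving out all 3 libraries of KO2D gave 51 higher at a smaller median of 0.41, and there Cox8a had 0.57 and Uqcrh 0.46. Leaving out the KO2D control library alone left 33 (median 0.40), with adjusted p-values of 0.31 for Uqcrh, 0.42 for Ndufa5 and 0.24 for Ndufa2. The call for Uqcrh was also lost without any 1 of the WT libraries (adjusted p up to 0.073). The second library set alone gave 7 (median 0.69).

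In KO replicate 4 both the mitochondrial share (18.5%) and the level of this list stood apart, whereas KO replicate 2 had a share within the WT range (5.17%) and a summed level above all WT libraries. None of 14 genes encoded by the mitochondrial genome passed the test (median 0.88, and 0.18 without KO2D). mt-Co1 had 16709 to 18542 CPM in WT and 23068, 19035, 35640 and 72339 CPM in KO (1.07 ± 0.44, adjusted p = 0.0903), mt-Nd5 1.10 ± 0.43 and mt-Nd6 1.11 ± 0.45. None of 78 cytosolic ribosomal protein genes passed either, and their median changed sign from 0.28 to -0.11 without KO2D, where 7 were lower. Their summed level was 12062 to 13800 CPM in WT, 11825 to 12289 CPM in KO replicates 1 to 3 and 27570 CPM in KO replicate 4.

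Short transcripts also sat higher in KO, by a median that was smaller without KO2D. Among 271 protein-coding genes with at most 1000 bases of exon the median log2 fold change was 0.40, with 20.7% called higher and 0.738% lower. Without KO2D the median was 0.13, with 17.3% called higher and 3.32% lower. For 1456 genes with over 10000 bases it was -0.07, and -0.02 without KO2D. The nuclear oxidative phosphorylation genes are short, with a median exon length of 1737 bases. Relative to the WT mean, their median shift was 0.43, 0.35, 0.43 and 1.12 on the log2 scale in KO replicates 1 to 4, against 0.10, 0.04, 0.13 and 0.46 for the 1689 other protein-coding genes of at most 2000 bases. The cytosolic ribosomal protein genes, of similar length, had shifts of -0.09, -0.13, -0.09 and 1.01 in KO replicates 1 to 4. The part of mitochondrial share and of transcript length in the rise was not tested.

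**Figure D4:**
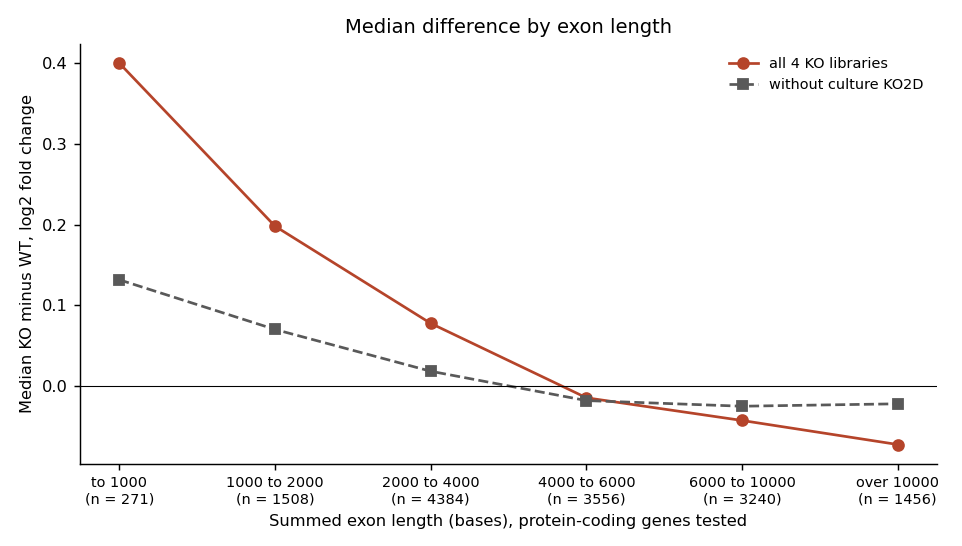
Median KO minus WT log2 fold change of protein-coding genes in 6 classes of summed exon length (bases, number of genes below), with all 4 KO libraries (red) and without culture KO2D (grey). The median for genes of at most 1000 bases is 0.40 with all libraries and 0.13 without KO2D.

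Some of the genes that neurons switch on when they fire were higher in untreated KO neurons. Of 42 late activity-regulated genes, 19 were higher (45.2%, against 11.3% of all genes tested), 1 was lower and 22 did not pass (median 0.79). Without KO2D 20 were higher and 1 lower, and in the second library set alone 9 (median 0.73). Bdnf, which encodes the neurotrophin itself, had 52.8, 63.6, 96.6 and 28.1 CPM in WT and 272, 209, 257 and 231 CPM in KO (2.01 ± 0.31, adjusted p = 8.53e-05). WT replicate 4 was the lowest of all, and every KO library was above 200 CPM. Gpr3, a receptor that raises cyclic AMP, rose by 2.09 ± 0.36, the signalling brake Rgs2 by 2.005 ± 0.27, the synaptic pentraxin Nptx2 by 1.94 ± 0.33 and the neuropeptide precursor Vgf by 1.73 ± 0.30. Crem, a repressor of cyclic AMP-driven transcription, rose by 1.26 ± 0.23. The exception was Nrgn, a calmodulin-binding protein of dendritic spines, which fell from 116 ± 31.6 to 28.3 ± 4.18 CPM (SD, n = 4, log2 fold change -2.04).

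Of 44 rapid activity-regulated genes, 14 were higher (31.8%), 1 was lower and 29 did not pass (median 0.31), and without KO2D 16 and 2 were called. The difference between the late and the rapid list was not tested. The count of rapid genes varied, with 8 higher without KO replicate 1 or WT replicate 1, 9 without KO replicate 3 or WT replicate 4, and 2 in the second library set alone. Fosb, a partner of Jun in the AP-1 factor, had 3.25, 5.12, 4.64 and 2.54 CPM in WT and 20.5, 17.97, 21.6 and 16.4 CPM in KO (2.30 ± 0.32, adjusted p = 2.52e-05). Fos had 43.2, 58.6, 74.2 and 20.5 CPM in WT and 140, 113, 131 and 78.4 CPM in KO (1.23 ± 0.30, adjusted p = 0.00519). Both sets of values were without overlap, though for Fos by only a few CPM. Npas4, a factor induced by calcium entry, rose by 1.52 ± 0.46, a call lost without KO replicate 1, WT replicate 1 or WT replicate 4 (adjusted p up to 0.068). Atf3 rose by 1.30 and Maff by 1.36. Other rapid genes did not follow: Arc had 0.30 ± 0.36 (adjusted p = 0.602), Egr1 -0.49 ± 0.33 (adjusted p = 0.307) and Egr2, named after its values were seen, 0.39 ± 0.37 (adjusted p = 0.503). The growth factor gene Ccn2, also a deep-layer marker, fell from 52.3 ± 26.4 to 12.8 ± 3.06 CPM (SD, n = 4).

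Part of these genes share a cyclic AMP response element, the palindrome TGACGTCA bound by CREB, in the 250 bases before their RefSeq start. It was found in 4 of 36 rapid genes with an entry (Btg2, Arl4d, Maff and Dusp1, of which the last 3 were higher) and in 3 of 29 late genes (Scg2, Pcsk1 and Plk2, of which the first 2 were higher), against 0 of 18 cholesterol genes. Over 27025 genes the share was 1.77%. That set holds all genes with an entry, expressed here or not, whereas the lists hold tested genes only, so the 2 shares are not of like sets. Shown are the upstream bases of 3 that rose: Maff, a small Maf factor (chr15:79347270-79347519, plus strand), Scg2, the granin secretogranin II (chr1:79440027-79440276, minus strand), and Pcsk1, a convertase that cuts neuropeptide precursors (chr13:75089607-75089856, plus strand). They are from RefSeq on GRCm38.p6, written in the direction of the gene, with the element in capitals:
Maff: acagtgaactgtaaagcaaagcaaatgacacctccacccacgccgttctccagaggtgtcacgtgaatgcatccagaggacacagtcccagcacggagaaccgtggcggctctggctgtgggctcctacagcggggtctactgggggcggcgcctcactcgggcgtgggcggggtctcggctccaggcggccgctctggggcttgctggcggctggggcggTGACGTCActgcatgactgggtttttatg
Scg2: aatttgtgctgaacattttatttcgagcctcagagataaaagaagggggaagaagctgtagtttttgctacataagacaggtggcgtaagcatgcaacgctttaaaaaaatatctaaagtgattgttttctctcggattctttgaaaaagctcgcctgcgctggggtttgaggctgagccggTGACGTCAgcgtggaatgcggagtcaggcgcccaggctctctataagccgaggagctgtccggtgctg
Pcsk1: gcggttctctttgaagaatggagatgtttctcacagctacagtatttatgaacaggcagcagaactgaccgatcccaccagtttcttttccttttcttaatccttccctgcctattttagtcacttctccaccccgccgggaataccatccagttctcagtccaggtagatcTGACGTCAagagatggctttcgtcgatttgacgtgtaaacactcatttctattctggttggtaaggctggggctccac
Scg2 rose from 526.5 ± 106 to 1285 ± 88.7 CPM (1.29 ± 0.20), Pcsk1 from 38.4 ± 11.54 to 94.4 ± 6.38 CPM (1.30 ± 0.23) and Maff from 4.06 ± 2.42 to 10.4 ± 1.66 CPM (SD, n = 4). Plk2 (0.07) and Btg2 (0.04), which carry the same 8 bases, did not pass.

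Of 32 precursors of neuropeptides and their processing enzymes, 11 were higher (34.4%, against 11.3% of all genes tested), 2 lower and 19 did not pass (median 0.60). Without KO2D 11 were higher and 3 lower, and the second set alone gave 5 higher. Npy, neuropeptide Y of interneurons, had 17.0, 9.23, 13.8 and 26.3 CPM in WT and 125, 108, 113 and 151 CPM in KO (2.90 ± 0.34, adjusted p = 5.20e-06). Cck, cholecystokinin, had 17.3, 13.7, 9.84 and 26.8 CPM in WT and 47.5, 73.3, 49.1 and 108 CPM in KO (2.04 ± 0.37). The amidating enzyme Pam rose by 1.385 ± 0.17 and the nociceptin precursor Pnoc by 1.71 ± 0.35. Nts, neurotensin, fell by 1.89 on the log2 scale with KO replicate 4 at 8.66 CPM and the other KO libraries at 1.93 to 3.47 CPM, and that call was lost without KO replicate 1, 2 or 3 or WT replicate 1 or 4 (adjusted p up to 0.067).

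Among neurotrophins and their receptors 6 of 16 rose and 4 fell. Bdnf was among those that rose. Ntf3, neurotrophin-3, went the other way, with 6.19, 4.48, 4.18 and 4.00 CPM in WT and 0.78, 0.30, 0.48 and 1.54 CPM in KO (-2.67 ± 0.73, adjusted p = 0.0111). Ngfr, the low-affinity receptor shared by all neurotrophins, fell by 1.48 on the log2 scale. Ntrk2, which encodes the BDNF receptor TrkB, had 683, 781, 746 and 614 CPM in WT and 582, 711, 645 and 409 CPM in KO, and that difference of -0.27 ± 0.14 did not pass (adjusted p = 0.196).

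Markers of deep-layer cortical neurons fell. Of 19 tested, 14 were lower and none higher (median -1.26), 15 without KO2D and 5 in the second library set alone (median -1.42). Their summed level was 1321, 1389, 1500 and 1069 CPM in WT and 628, 685, 615 and 461 CPM in KO. Ldb2 (chr5:44472132-44799680, minus strand), a cofactor of layer 5 neurons, had 93.8, 84.7, 83.1 and 98.0 CPM in WT and 9.41, 17.1, 12.3 and 14.4 CPM in KO (-2.75 ± 0.39, adjusted p = 3.41e-05). Hs3st4, a heparan sulfate sulfotransferase of layer 6, had 107, 110, 88.0 and 84.6 CPM in WT and 14.3, 22.2, 20.7 and 21.4 CPM in KO (-2.31 ± 0.34). Foxp2 had 11.52 to 14.9 CPM in WT and 1.18, 4.39, 1.49 and 1.06 CPM in KO (-2.64 ± 0.60), with KO replicate 2 above the other KO libraries. The 14 also included Tle4 (-2.18), Etv1 (-1.96), the layer 6 identity factor Tbr1 (-1.88), the subcerebral projection factor Fezf2 (-1.08), Sox5 (-0.77) and Bcl11b (-0.70). Crym (0.09), Sulf2 (-0.05) and Nr4a2 (-0.45) did not pass.

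Upper-layer markers were mixed, with 2 of 18 higher and 6 lower (median -0.11). Rorb, a nuclear receptor of layer 4, fell from 21.4 ± 5.59 to 5.65 ± 0.86 CPM (-1.93 ± 0.38) and Mdga1 from 68.3 ± 7.91 to 20.8 ± 10.7 CPM (-1.73 ± 0.27). Cux1 rose by 0.51 ± 0.15. The number lower was 5 without KO2D, when Cdh6 had an adjusted p of 0.092, and 4 without the control library of KO replicate 4, WT replicate 1 or WT replicate 2. None was higher without KO replicate 1, KO replicate 2 or WT replicate 3. Pan-neuronal markers were also lower in 7 of 14 genes and higher in 2. Dcx, a microtubule protein of young neurons, had 882, 906, 835 and 787 CPM in WT and 299, 378, 374 and 328 CPM in KO (-1.31 ± 0.21, adjusted p = 1.00e-04), named after its values were seen. Tubb3 had 1573, 1526, 1566 and 1520 CPM in WT and 1038, 903, 908 and 888 CPM in KO (-0.73 ± 0.08). Nefh, the heavy neurofilament of mature axons, rose from 13.4 ± 3.04 to 45.2 ± 10.1 CPM (1.76 ± 0.24). Map2, Stmn2 and Snap25 had -0.04, -0.17 and 0.24 and did not pass.

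**Figure D5:**
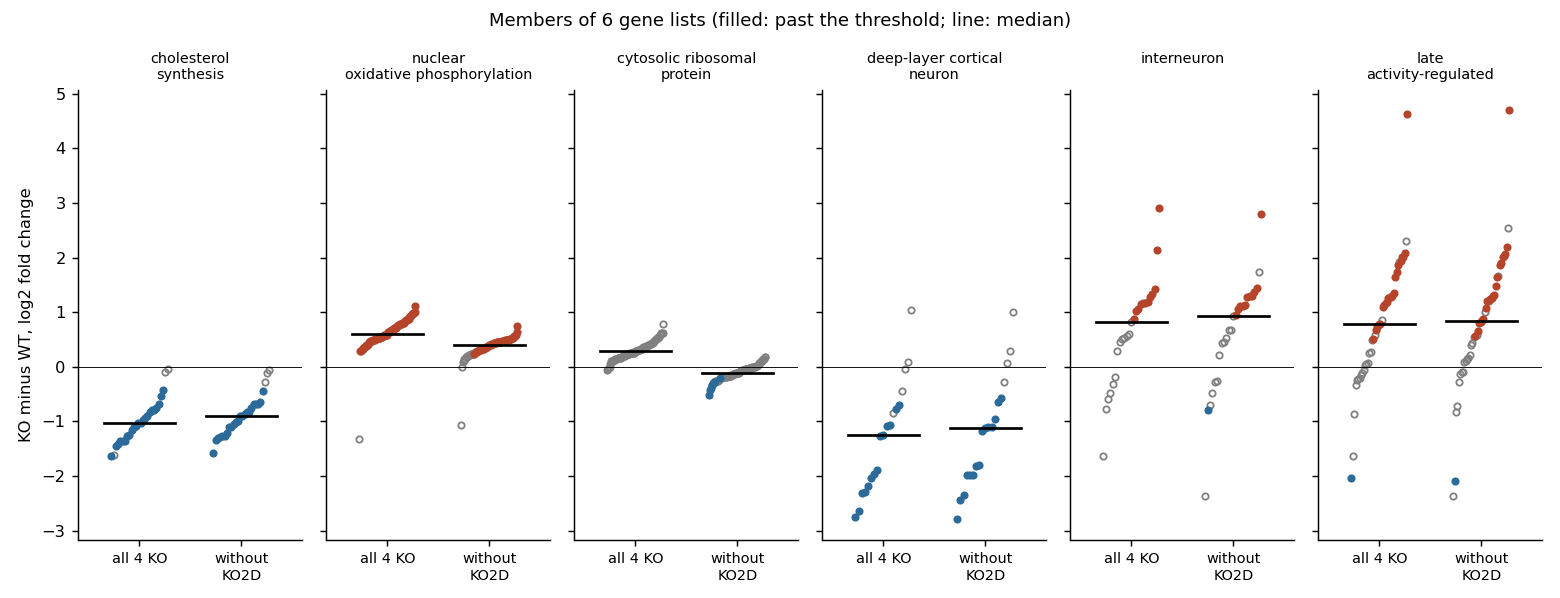
KO minus WT log2 fold change of each tested member of 6 gene lists, with all 4 KO libraries and without culture KO2D, sorted within each column. Filled points passed the threshold (red higher, blue lower) and lines are medians, which for cytosolic ribosomal protein genes lie at 0.28 and -0.11.

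Of 25 interneuron markers tested, 11 rose, none fell and 14 did not pass (median 0.82), and without KO2D 11 rose and 1 fell. The summed level was 2447, 2094, 2864 and 4815 CPM in WT and 4611, 5491, 5807 and 4121 CPM in KO, so the groups overlapped. Gad1, which makes the transmitter GABA, had 468, 405, 442 and 788 CPM in WT and 951, 1289, 1193 and 862 CPM in KO (1.03 ± 0.28, adjusted p = 0.00995), named after its values were seen. Slc32a1, which loads GABA into vesicles, rose by 1.33 ± 0.36, and the lineage factors Lhx6 by 1.27 ± 0.28 and Maf by 1.43 ± 0.40. The count was 6 or 7 without WT replicate 1, 2 or 3 or KO replicate 2, 3 or 4, and 12 without WT replicate 4. In the second library set, which holds WT replicate 4, it was 1 (median 0.45). Gad2, at 138 to 168 CPM in WT replicates 1 to 3, 450 CPM in WT replicate 4 and 406 to 611 CPM in KO, was called with all libraries (adjusted p = 0.0471) and without WT replicate 4, but in no other fit that left out 1 control library (adjusted p up to 0.14). Pvalb, counted among the 11, lay at 0.060 to 0.26 CPM in WT and 0.32 to 1.06 CPM in KO, and its call was lost in 6 of the 8 fits (adjusted p up to 0.13). Sst (0.29 ± 0.28) and Vip (-1.64 ± 1.66) did not pass.

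Markers of striatal neurons split. Of 20 tested, 3 rose, with Tac1 (0.97) and Rarb (0.73) among them, while 7 fell, among them Foxp1 (-1.28 ± 0.29), Ppp1r1b (-1.37 ± 0.46), Rgs9 (-0.97) and Drd1 (-0.69). Leaving out 1 control library left 1 or 2 higher in 6 of the 8 fits, which were all but those without KO replicate 1 or WT replicate 4. The call for Ppp1r1b was lost in 6 of 8 (adjusted p up to 0.098). The number of striatal markers lower was 6 or 7 in these 8 fits. The second library set alone gave 1 higher and 0 lower (median -0.66). Hippocampal and Cajal-Retzius markers fell in 6 of 17 and rose in 1 (median -0.78). Trp73, a marker of Cajal-Retzius cells, had 13.9, 14.3, 17.0 and 12.3 CPM in WT and 1.32, 1.63, 9.07 and 0.96 CPM in KO (-2.16 ± 0.70, adjusted p = 0.0299), and Lhx1 and Ebf3 were likewise highest in KO replicate 3 within KO. The call for Trp73 was lost in 6 of the 8 fits without 1 control library (adjusted p up to 0.084). Without 1 control library the number lower was 2 to 7, lowest without KO replicate 2 or WT replicate 1. Emx1, a factor of the cortical lineage, fell by 1.40 ± 0.29 on the log2 scale.

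Synaptic genes changed in both directions. Of 58 presynaptic genes 12 rose and 12 fell (20.7% each, median 0.00), against 11.3% and 10.1% of all genes tested. Vamp1, a vesicle SNARE of fast synapses, rose from 12.1 ± 0.46 to 27.9 ± 2.65 CPM (1.20 ± 0.18), and Doc2b, a calcium sensor of release, fell from 59.9 ± 5.35 to 23.5 ± 5.13 CPM (-1.35 ± 0.18). Syn3 (-1.29 ± 0.20) and Syt6 (-1.26 ± 0.30) fell too. Slc17a7, the vesicular glutamate transporter VGLUT1, named after its values were seen, had 268 to 437 CPM in WT and 158 to 308 CPM in KO (-0.74 ± 0.25, adjusted p = 0.0397). The groups overlapped, its adjusted p was 0.087 without KO2D, and its call was lost in 6 of the 8 fits without 1 control library. Without KO2D 18 of the presynaptic genes rose and 13 fell, and with mitochondrial share as a covariate 20 and 11. The number that rose was 7 without the control library of KO replicate 1 or 2 or WT replicate 1 or 2, and 8 without KO replicate 3. In the second library set alone 4 rose and 4 fell.

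Of 69 genes for glutamate receptors and their scaffold, 11 rose (15.9%) and 18 fell (26.1%), with a median of -0.18. Over all genes tested the shares were 11.3% and 10.1%. Grm3, a metabotropic receptor coupled to Gi, had 36.8, 34.6, 40.8 and 35.0 CPM in WT and 6.18, 8.11, 8.12 and 5.73 CPM in KO (-2.38 ± 0.28, adjusted p = 5.96e-06). Grik3, a kainate receptor subunit, fell from 273 ± 46.3 to 71.7 ± 17.4 CPM (-1.93 ± 0.28), while its relative Grik1 rose from 50.1 ± 26.0 to 133 ± 18.8 CPM (1.40 ± 0.34). Among AMPA receptor subunits Gria1 (0.83) and Gria4 (0.78) rose and Gria2 (-0.38) and Gria3 (-0.54) fell, and among NMDA receptor subunits Grin1 (0.52) rose and Grin2a (0.22) and Grin2b (-0.44) did not pass. The number that rose was 5 to 7 without KO replicate 1, 2 or 3 or WT replicate 1 or 2. Of 25 genes of the GABA synapse 8 rose and 5 fell. Gabrg3 rose from 32.9 ± 10.05 to 94.9 ± 6.77 CPM (1.53 ± 0.23), Gabrd by 0.98 and Gabra2 by 0.83, and Gabra3 (-0.81), Gabra5 (-0.47) and Gabrb2 (-0.48) fell. Without KO replicate 1 or 3 or WT replicate 1 or 2 the number that fell was 3.

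The list of voltage-gated channels also holds potassium channel genes not gated mainly by voltage, such as Kcnj, Kcnk and Kcnn genes. It followed the same mixed pattern, with 17 of 80 higher (21.25%) and 23 lower (28.75%, median -0.08). Over all genes tested the shares were 11.3% and 10.1%. Without KO2D 23 were higher and 22 lower (median -0.009), and in the second library set alone 5 and 8. The sodium channel genes differed by subtype. Scn1a, the main channel of fast-spiking interneurons, rose from 54.1 ± 1.28 to 142 ± 23.8 CPM (1.40 ± 0.18), Scn2b (0.73) rose, and Scn2a (-0.50), the embryonic Scn3a (-0.96) and Scn9a (-1.70 ± 0.42) fell. Among potassium channel genes Kcns3 rose most, from 1.88 ± 0.44 to 10.02 ± 0.99 CPM (2.42 ± 0.25, adjusted p = 1.10e-06), and Kcna1 (0.67), Kcna2 (0.91) and Kcnc1 (0.63) also rose. Kcnv1 (-1.82 ± 0.30) and Kcnh5 (-1.77 ± 0.39) fell. The T-type calcium channel genes Cacna1g (-1.10) and Cacna1h (-0.62) fell.

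Genes that guide axons fell more often than they rose. Of 67 ligands and receptors tested, 28 were lower and 6 higher (median -0.31), 29 and 8 without KO2D, and 12 and 0 in the second library set alone. The number higher was 3 or 4 without KO replicate 1, 2 or 3 or WT replicate 1 or 2. Among ligands, Sema3f had 17.98, 19.5, 25.4 and 17.8 CPM in WT and 3.77, 4.73, 5.03 and 4.72 CPM in KO (-2.15 ± 0.29, adjusted p = 2.00e-05). Rgma, a repulsive membrane protein, had 80.5, 97.7, 86.5 and 78.6 CPM in WT and 24.5, 22.9, 19.97 and 27.2 CPM in KO (-1.86 ± 0.21). Draxin fell by 2.10 and Sema4a by 1.92 on the log2 scale. Among receptors, Nrp2 (-1.14), Ephb1 (-1.51), Robo1 (-0.63) and 5 plexin genes (Plxna1, Plxna3, Plxnb1, Plxnb2 and Plxnd1) fell, and Nrp1 (0.72), Unc5c (0.78) and Plxna4 (0.45) rose. Of 82 cadherins and protocadherins 11 fell (13.4%) and 3 rose (3.66%), against 10.1% and 11.3% of all genes tested. Those that fell included Cdh18 (-1.89 ± 0.36), Cdh11 (-1.43 ± 0.26) and Cdh7 (-1.32 ± 0.19). Without KO2D 15 fell and 7 rose. The fits that left out 1 control library gave 6 to 12 falls, the fewest without KO replicate 4 (6) and WT replicate 1 (7), and 1 to 5 rises.

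Of 42 matrix genes 12 were called higher (28.6%) and 7 lower (16.7%), against 11.3% and 10.1% of all genes tested, which left 23 uncalled. The counts were 8 and 4 without WT replicate 1, and 1 and 4 in the second library set alone. Acan, aggrecan, the core of perineuronal nets around mature neurons, had 28.1, 38.3, 71.4 and 8.23 CPM in WT and 473, 389, 350 and 239 CPM in KO (3.31 ± 0.62, adjusted p = 0.000517). Vcan, versican, typical of younger tissue, had 137, 158, 140 and 112 CPM in WT and 26.2, 44.0, 46.6 and 28.1 CPM in KO (-1.92 ± 0.21, adjusted p = 2.04e-06). Neither gene overlapped between the groups. Hapln4, which links such nets, rose by 1.75, Ncan (-0.45) fell, and Bcan (-1.01) and Hapln1 (1.47) did not pass. Spp1 rose by 2.27 ± 0.68 with KO replicate 4 at 7.89 CPM, and its adjusted p was 0.15 without that library and 0.056 without WT replicate 1.

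Of 30 heat shock and unfolded protein genes 10 rose, 1 fell and 19 did not pass (median 0.32), 14 and 2 without KO2D and 6 higher without KO replicate 1. Hsp90b1, the ER form of HSP90, had 307, 326, 309 and 282 CPM in WT and 499, 421, 506 and 649 CPM in KO (0.76 ± 0.17, adjusted p = 0.00248). Sdf2l1 rose by 1.19 ± 0.22, the stress factor Ddit3 by 0.76 ± 0.13 and the ER chaperone Hspa5 by 0.65, while Ddit4 fell by 0.74 on the log2 scale. Of 19 p53 and cell death genes 2 rose (10.5%) and 4 fell (21.1%, or 7 genes without KO2D), against 11.3% and 10.1% of all genes tested. Trp53inp1 (-0.75) and Sesn1 (-0.64) were among those that fell, and Trp53 itself had 0.12 and did not pass. Bbc3 (-0.70) was called with all libraries but not without KO replicate 3 or 4 or WT replicate 3 or 4 (adjusted p up to 0.084).

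Enzymes that modify histones and DNA differed little in size. Of 67 tested, 6 were higher (8.96%) and 10 lower (14.9%), near the 11.3% and 10.1% of all genes tested (median -0.14). The counts were 9 and 13 without KO2D, and 0 and 0 in the second library set alone. Setd7, a lysine methyltransferase, rose from 80.2 ± 2.72 to 131 ± 18.4 CPM (0.71 ± 0.12), Dot1l by 0.65 and the class II deacetylase genes Hdac9 and Hdac5 by 0.61 and 0.52. The acetyltransferase gene Kat6b fell from 69.6 ± 6.19 to 43.4 ± 7.25 CPM (-0.68 ± 0.14), and Kdm2b (-0.66), Dnmt1 (-0.51) and the Polycomb methyltransferase Ezh2 (-0.72 ± 0.23) fell. The call for Ezh2 was lost in 5 of 8 fits without 1 control library (adjusted p up to 0.093), and the number higher was 2 to 4 in 7 of them. Among 22 interferon-related genes 1 rose (4.55%) and 3 fell (13.6%). Stat2 fell from 43.3 ± 2.71 to 15.5 ± 1.64 CPM (-1.48 ± 0.14, adjusted p = 4.93e-07), and B2m, the light chain of MHC class I, rose from 11.1 ± 0.87 to 22.2 ± 5.80 CPM while the heavy chain genes H2-K1 (-1.06) and H2-D1 (-0.56) fell. Of 14 regional patterning factors tested 3 fell (21.4%): Lhx9 (-3.48), Barhl2 (-2.61, adjusted p = 0.054 without KO replicate 1) and Otx1 (-2.17).

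Glial and other markers were low, and some moved with genotype. Astrocyte markers summed to 625 to 727 CPM in WT and 247 to 443 CPM in KO, most of it the glutamate transporter Slc1a2, which young neurons can also express, at 332 to 575 CPM in WT and 159 to 289 CPM in KO (-0.92 ± 0.24). Of 15 tested 2 fell, or 5 without KO replicate 3 and 1 without WT replicate 4, the other being Aldoc (-2.02 ± 0.56, adjusted p = 0.057 without WT replicate 4). The median of the 15 was -0.92 (-0.76 without KO2D), and 2 of them lay above 0. The defining marker Gfap, named after its values were seen, was at 1.39 to 5.76 CPM in WT and 0 to 1.604 CPM in KO and did not pass (adjusted p = 0.343). Microglial and macrophage markers summed to 12.2 to 17.2 CPM in WT and 24.3 to 38.2 CPM in KO, with 2 of 12 higher, or 5 without KO replicate 3 and 4 without WT replicate 4. Of these 12, 10 lay above 0, with a median of 2.08 (1.16 without KO2D). Cd68, a lysosomal protein, rose from 4.06 ± 1.92 to 19.95 ± 4.78 CPM (2.30 ± 0.34) and Csf1r from 0.13 ± 0.17 to 1.09 ± 0.25 CPM, whereas Aif1 (-0.45) did not pass and 8 of the 16 markers were under 1 CPM in all 8 libraries. Tagln (1.43 ± 0.35) and Acta2 (1.74 ± 0.46), contractile genes of mural cells, rose, which made 2 of the 8 endothelial and mural markers tested. Of those 8, 7 lay above 0 (median 1.16). Oligodendrocyte markers summed to 50.6 to 59.5 CPM in WT and 32.2 to 54.1 CPM in KO. Proliferation and progenitor markers summed to 104 to 154 CPM in WT and 113 to 127 CPM in KO, with Hes1 lower (-2.16 ± 0.38) and Neurog2 higher (1.88 ± 0.45). The part of other cells in the differences above was not tested.

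For 3 named genes the genotype difference changed under BDNF by edgeR's test of the difference itself. For Fosb the KO minus WT log2 fold change of 2.30 in control became -1.06 ± 0.29 at 30 min, a difference of -3.36 ± 0.43 (adjusted p = 0.000547), and was 1.92 ± 0.30 at 24 h. For Egr2 it went from 0.39 to -2.22 ± 0.33 at 30 min, a difference of -2.61 ± 0.49 (adjusted p = 0.0442). For Vcan it went from -1.92 to -0.33 ± 0.20 at 24 h, a difference of 1.59 ± 0.29 (adjusted p = 0.0348). Bdnf stayed higher in KO, by 1.55 ± 0.31 at 30 min and 1.23 ± 0.31 at 24 h, and neither difference from the control value passed (adjusted p of 0.978 or more). For the lists, the median of the cholesterol genes was -1.03 in control, -1.06 at 30 min and -0.73 at 24 h, that of the deep-layer markers -1.26, -1.25 and -0.78, that of the interneuron markers 0.82, 0.69 and 0.47, and that of the late activity genes 0.79, 0.79 and 0.11. The rapid activity genes went from 0.31 in control to -0.67 at 30 min and -0.01 at 24 h. All 24 h values here include the KO2D library that held both Xist and Ddx3y, and its part in them was not tested.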

How the data were processed

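Polyadenylated RNA of 24 mouse cortical neuron cultures was sequenced, and the authors deposited raw read counts per gene. Per the submitters' processing notes the tools were STAR 2.7.9a, DESeq2 1.38.3, limma 3.54.2 and edgeR 3.40.2 with genome build mm10, with no roles stated. Not given in the sources used here: counting program, strand setting, annotation. Untreated libraries held 23734512 to 61860243 counts, and the number of cultures limits the precision of most genes. Of 45792 deposited genes, 45229 were named from GENCODE M21 (98.8%), and the 563 others hold 0.0662% of the counts.

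All 24 libraries entered a single edgeR 4.0.16 model of 6 group means in R 4.3.3 (18 residual degrees of freedom, filterByExpr at 10 counts and a total of 15, TMM factors), and KO control minus WT control was tested. The script was tested on simulated data. Standard errors come from the F statistic. Exact binomial intervals cover counting error only, and a total of 0 was set to 3 counts over the group. Alternatives were DESeq2 1.42.0 size factors and test, other filters, mitochondrial genes left out, mitochondrial share or library set as a term, the 8 control libraries alone, the second library set alone, replicate number as a block, and each control library or culture KO2D left out. Deviations of same-numbered cultures showed no pairing.

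Genes were named by rule: Hist2h2be, the 15 largest rises and 15 largest falls of at least 1 CPM without overlap (predicted genes passed over), up to 4 called members per list, up to 12 called genes within 10 Mb of Hist2h2be, and Bdnf, Ntrk2, Fos, Fosb, Egr1, Arc and Npas4. Some genes that the rule names are not reported here. Others were chosen after their values were seen. The libraries and lists were chosen with earlier results of these data known. Some genes stand in several lists. The labels do not show that cultures came from separate embryos or litters. Control libraries high in Xist and those high in Ddx3y point to embryos of different sex, which sets some cultures of each genotype apart. Litters, and cultures alike in these genes, are not told apart. By label, each culture gave a library in every condition, and the model treated all 24 libraries as independent. The p-values thus measure the spread between libraries of a group, and the culture that libraries share was not modelled. With the 8 control libraries alone 3410 genes were called, 1662 higher and 1748 lower. In that fit 41 nuclear oxidative phosphorylation genes were higher, against 54 as reported.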

Additional observations from a re-analysis of the deposited data

Results flagged for a closer look

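Among 318 groups of 4 libraries tested for a library that lay apart from the other 3, 34 held one, and chance gives about 1 in 20 groups. Of these 10 were WT replicate 4 and 9 were KO replicate 4. WT replicate 4 was the high library for Hist2h2be (5.83 CPM), Hist3h2a (31.1), Nrgn (164), Grik1 (88.7), Gad2 (450), Gad1 (788) and Gfap (5.76), and the low library for H2afy2 (68.9), Olfm3 (24.4) and Ddit3 (19.7). KO replicate 4, from culture KO2D, was high for Uqcrh (739 CPM), Ndufa5 (253), Cox8a (534), Ndufa2 (193), Rps13 (153), Draxin (6.64) and Mdga1 (36.7), and low for Gabrg3 (84.9) and Hmgcs1 (413).

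KO replicate 3 was high for Wfdc2 (4.76 CPM), Ccn2 (17.3), Lhx1 (1.97) and Trp73 (9.07) and low for Egr2 (2.31). KO replicate 1 was high for Impg1 (2.74 CPM), Neurog2 (2.90), Nefh (60.3) and Tubb3 (1038). KO replicate 2 was high for Foxp2 (4.39 CPM) and low for H2-K1 (2.79). WT replicate 1 was high for Olfr920 (0.18 CPM) and Cox8a (158), and WT replicate 3 for Lce1g (0.75) and Crisp1 (1.13).

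The genotype difference itself differed between conditions for 3 named genes by edgeR's quasi-likelihood test of the interaction. The KO minus WT log2 fold change of Fosb at 30 min minus that in control was -3.36, that of Egr2 was -2.61, and that of Vcan at 24 h minus that in control was 1.59.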

How the results depend on the processing

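Of 3592 called genes, 1903 were higher and 1689 lower. Leaving out 1 control library at a time gave 2667 to 3191 calls, 1365 to 1617 higher and 1302 to 1618 lower, with 2400 to 2782 shared with 30 min and 1327 to 1660 with 24 h. The second library set alone gave 599 calls, 243 higher and 356 lower, 482 shared with 30 min and 10 with 24 h, with fewer libraries in that fit. The count shared with 24 h, 1633 as reported, was 2923 without culture KO2D and 2529 with mitochondrial share as a covariate. An alternative chosen after seeing the data, without KO2D and the KO 30 min replicate 3 library, gave 3477 shared with 24 h and 2615 lower. The cause of these moves was not tested. DESeq2 called 4193 genes. With its size factors in edgeR 49.9% of calls were higher against 52.98% as reported, and the median of all genes was 0.02 against 0.03.

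Replicate numbers are shared between genotypes, but same-numbered cultures did not deviate together (correlations of -0.05, -0.03, 0.01 and 0.01), so they share only a number. With the replicate block over 24 libraries 4227 genes were called, and with the block over the 8 control libraries 3026.

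Of the results on 157 named genes over these alternatives, 3049 kept their direction and side of the threshold, 220 lost the threshold, 15 gained it and 0 reversed. The second library set alone accounted for 82 of the losses. With 4 cultures per genotype, differences of a fold of 1.5 can be missed. On simulated counts 38.75% of 80 such genes were called, against 92.5% of 40 genes changed 4-fold. That simulation left 16545 of 16745 genes unchanged, placed changes only in genes averaging above 1 CPM and drew libraries without a shared culture effect. In the data 3592 of 16777 genes were called, so the simulated shares need not hold for this contrast.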
